A study of Saccharomyces cerevisiae with 23 samples.

Results

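The euploid tetrad population, a yeast population with a complete chromosome set obtained through tetrad dissection, was compared with a haploid control across all genes of the count table. The comparison used 5 of the 23 RNA sequencing libraries of the series, 3 of the euploid tetrad population and 2 of the haploid control, chosen by their sample labels and by no measured value. Of 6596 genes listed, 6531 had a count in at least 1 library and 6111 passed the low-count filter and were tested.

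The study set karyotypically mixed aneuploid populations of budding yeast (Saccharomyces cerevisiae) against euploid ones. The labels give the strain BY4741, a common laboratory haploid, and the genotype euploid for both the euploid tetrad population and the haploid control. They name no treatment and give the same growth conditions for both. All cultures of the series were grown overnight in the rich glucose medium YPD, then kept for 4 h in fresh YPD at 23 °C in deep-well plates. Another euploid population, from a-selection (3 libraries), served only to show where the euploid tetrad population stood apart. The labels give neither the number of segregants in the tetrad population nor the cell density at harvest. They are also silent on whether replicate libraries are separate cultures. The p-values therefore measure only the spread between replicate libraries, estimated jointly over the 8 groups of the series. This spread may be technical. With 1 population on each side, population and group cannot be told apart.

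Budding yeast growing on glucose is known to spend much of its transcription on ribosomes and glycolysis and to repress genes for other carbon sources and for respiration. Cells short of glucose or under stress are known to lower ribosome genes and to raise stress genes through the factors Msn2 and Msn4. Mating is run by peptide pheromones: alpha cells secrete alpha-factor, which binds the receptor Ste2 on a cells, and a cells secrete a-factor, which binds Ste3 on alpha cells. Both receptors act through a kinase cascade on the transcription factor Ste12.

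Libraries of the euploid tetrad population held 14014158 to 16159420 counts and those of the haploid control 18168994 to 19327344. Levels are given in CPM (counts per 1e6 counts of a library, with TMM scaling), and values after ± beside a log2 fold change are standard errors. The haploid control carried the marks of an a cell, since the a-cell receptor gene STE2 stood at 472 and 479 CPM while the alpha-factor gene MF(ALPHA)1 stood at 0.729 and 0.416 CPM. Its label BY4741 usually stands for a strain without LEU2, URA3 and MET17. LEU2, of leucine synthesis, had 67.1, 65.2 and 68.03 CPM in the euploid tetrad libraries, against 0.146 and 0 CPM in the haploid control libraries, and URA3, of uracil synthesis, had 0, 3 and 4 counts in the euploid tetrad libraries, against 0 and 0 in the haploid control libraries. MET17, of methionine synthesis, was present, with 13.3, 11.7 and 10.99 CPM in the euploid tetrad libraries, against 319.6 and 314 CPM in the haploid control libraries, so the counts of the haploid control went against the usual genotype at this gene. The euploid tetrad population has the same strain label, and its LEU2 level and the alpha-specific transcripts described below also went against it. The mating-type gene MATALPHA1 had 0, 94.98 and 0 CPM in the euploid tetrad libraries, against 0 and 0 CPM in the haploid control libraries, so 1 library alone held it. Copies of this gene also lie at the silent mating loci. In every other gene given below with its level in each library, the groups did not overlap, except SNZ2.

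More genes differed than did not. In euploid tetrad against haploid control, 2876 genes were higher (47.1% of those tested) and 2664 were lower (43.6%), so that 5540 of 6111 (90.7%) were called by edgeR's quasi-likelihood test at an adjusted p under 0.05. At 2-fold or more, 1723 were higher (28.2%) and 1658 lower (27.1%). At 16-fold or more, 273 were higher and 459 lower, and at 64-fold or more 110 and 166. The median log2 fold change was 0.09 with quartiles of -1.14 and 1.18. In 5668 genes (92.8%) the 3 tetrad libraries and the 2 haploid libraries did not overlap. A count of called members of any list below is therefore read against these shares, and the size of a change says more than its call. All values are relative to the library total, so less RNA per cell and fewer cells of a type cannot be told apart from lower expression. With library totals alone, all log2 fold changes shifted by a median of 0.19 and the split became 3179 higher and 2412 lower, and with upper-quartile factors they shifted by -0.11 and the split became 2690 and 2825.

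**Figure D1:**
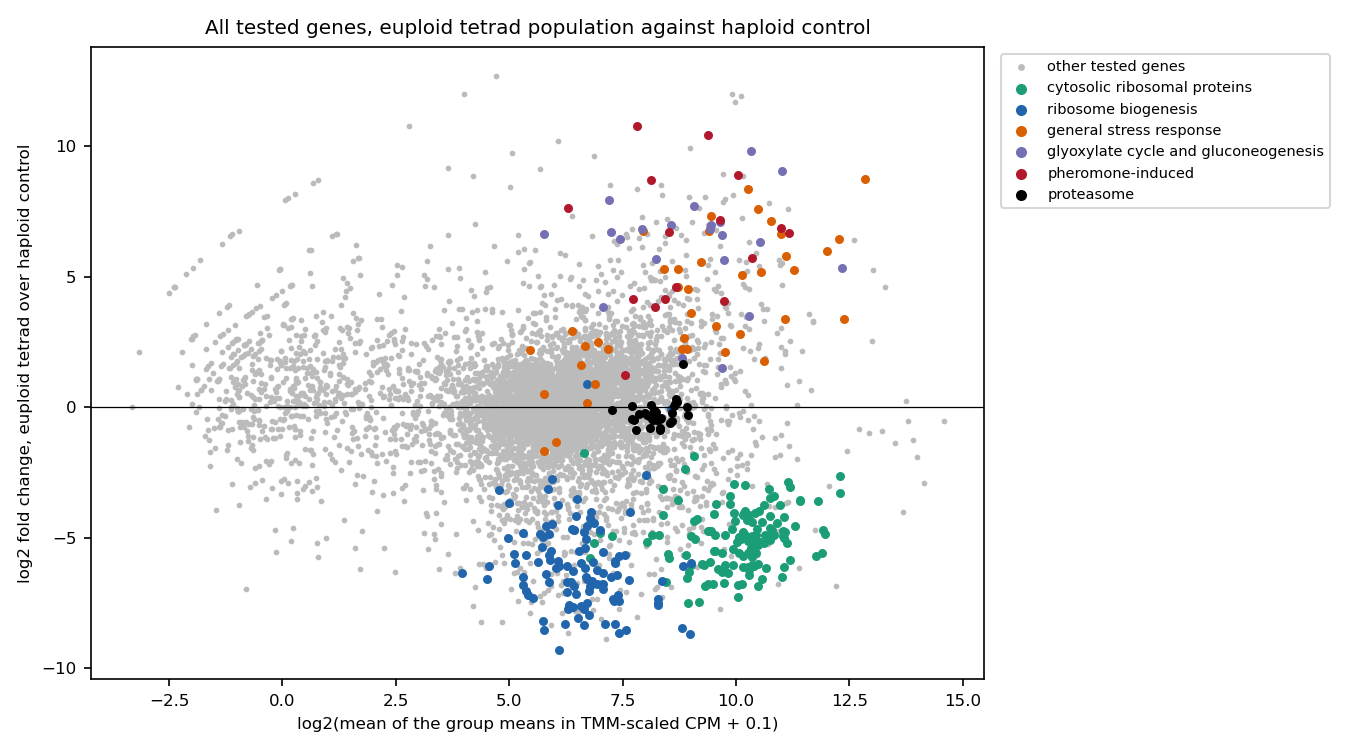
Log2 fold change of each tested gene, euploid tetrad over haploid control (y axis), against the log2 of the mean of both group means in TMM-scaled CPM plus 0.1 (x axis), with 6 gene lists in colour. Ribosomal protein and ribosome biogenesis genes lie at the bottom (medians of -4.97 and -6.24), the proteasome near 0, and stress, glyoxylate cycle and pheromone-induced genes at the top (medians of 3.51, 6.65 and 6.68).

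Genes of ribosome production were the lowest as lists. All 137 cytosolic ribosomal protein genes were lower in the euploid tetrad population, by a median log2 fold change of -4.97 (range -7.49 to -1.73), where the median of all tested genes was 0.09. They took 1.35%, 1.298% and 1.35% of all gene counts in the euploid tetrad libraries, against 25.7% and 25.3% in the haploid control libraries. RPL16A, a large-subunit protein gene (chromosome IX, 98527 to 99416, R64), had 15.6, 12.7 and 12.6 CPM in the euploid tetrad libraries, against 2092 and 2099.8 CPM in the haploid control libraries, a log2 fold change of -7.26 ± 0.05 (edgeR, adjusted p = 2.09e-32). RPL33B and RPL6B, also of the large subunit, stood at -7.49 ± 0.05 and -7.47 ± 0.05, and RPS18B and RPS6B of the small subunit at -6.84 ± 0.04 and -6.83 ± 0.12. Many ribosomal protein genes exist as close duplicates, and the handling of shared reads is not given in these sources, so the split within a pair is uncertain.

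Ribosome biogenesis genes, whose products process ribosomal RNA and assemble the subunits in the nucleolus, fell further. Of 108 members 107 were lower and 1 was higher, with a median of -6.24, and together they took 0.0814%, 0.0839% and 0.0854% of all gene counts in the euploid tetrad libraries, against 1.86% and 1.87% in the haploid control libraries. MAK16, needed for the large subunit (chromosome I, 100225 to 101145), had 0.155, 0.145 and 0.331 CPM in the euploid tetrad libraries, against 135 and 136 CPM in the haploid control libraries, which is 2, 2 and 4 counts in the tetrad libraries. At -9.31 ± 0.15 it was the lowest of all tested genes (edgeR, adjusted p = 4.88e-25). NOP1, the fibrillarin gene that encodes the methyltransferase of small nucleolar RNPs (chromosome IV, 427364 to 428347), had 2.18, 2.31 and 2.89 CPM in the euploid tetrad libraries, against 998 and 1023 CPM in the haploid control libraries, at -8.68 ± 0.08. The assembly factor MRT4 stood at -8.64 ± 0.08, the GTPase gene NOG1 at -8.53 ± 0.10, the nucleolin-like NSR1 at -8.46 ± 0.06 and the helicase gene DBP3 at -8.30 ± 0.11. All but 1 of the lower members fell 2-fold or more, 106 in all. ESF1, of small-subunit processing, stood at only -0.07 ± 0.03, with 362, 369 and 370.4 CPM in the euploid tetrad libraries, against 389.7 and 381 CPM in the haploid control libraries, and at 0.12 with library totals alone. RIO1, a kinase of late small-subunit maturation, was the only member higher, with 128, 141 and 138 CPM in the euploid tetrad libraries, against 73.2 and 74.97 CPM in the haploid control libraries, at 0.87 ± 0.05.

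The upstream sequence of these genes is shown because its elements are common to the list. The PAC element (GATGAG) and the core of the ribosomal RNA processing element, RRPE (AAAATTT), were searched on both strands from 250 bases before to 50 after the start codon in 5748 promoters of RefSeq R64. PAC was found in 102 of 108 ribosome biogenesis promoters (94.4%), against 19.9% of all promoters, and RRPE in 103 (95.4%), against 23.7%. Among genes lower by 4-fold or more the shares were 40.8% and 49.2%, and among genes higher by 4-fold or more 13.0% and 16.4%. RIO1 also held both. The RRPE core can match both strands at overlapping positions. The promoters of MAK16 and NOP1 follow, 5′ to 3′ on the gene's strand, with matches to either element in capitals.
MAK16, chrI:101096-101395, minus strand: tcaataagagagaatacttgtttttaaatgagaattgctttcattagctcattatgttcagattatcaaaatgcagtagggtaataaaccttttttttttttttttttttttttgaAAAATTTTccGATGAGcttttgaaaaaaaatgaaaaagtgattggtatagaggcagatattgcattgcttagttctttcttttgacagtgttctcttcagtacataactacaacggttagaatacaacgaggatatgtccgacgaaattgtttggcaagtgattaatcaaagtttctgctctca
NOP1, chrIV:427114-427413, plus strand: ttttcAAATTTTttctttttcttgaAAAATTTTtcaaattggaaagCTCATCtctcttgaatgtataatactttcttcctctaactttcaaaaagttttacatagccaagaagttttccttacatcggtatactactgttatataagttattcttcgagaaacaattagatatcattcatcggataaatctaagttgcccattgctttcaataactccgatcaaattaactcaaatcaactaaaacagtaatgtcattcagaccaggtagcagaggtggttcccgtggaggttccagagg

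RNA polymerase I, which makes the large ribosomal RNA, followed the same direction, with all 8 genes lower and a median of -7.24. Its subunit gene RPA49 had 0.622, 0.506 and 1.74 CPM in the euploid tetrad libraries, against 258 and 256 CPM in the haploid control libraries, at -8.10 ± 0.13, and RPA135, a catalytic subunit, stood at -6.97 ± 0.06. RPA14 and the initiation factor RRN3 were the least changed, at -1.98 ± 0.06 and -1.20 ± 0.05. All 10 RNA polymerase III genes were lower (median -4.31), from RPC17 at -6.88 ± 0.24 to the largest subunit gene RPO31 at -2.16 ± 0.04.

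Translation genes were lower too. Of 36 translation factor genes 34 were lower and 2 higher, with a median of -3.07. YEF3, elongation factor 3, had 75.7, 79.6 and 85.6 CPM in the euploid tetrad libraries, against 9213 and 9385 CPM in the haploid control libraries, at -6.86 ± 0.04, and EFB1, a subunit of elongation factor 1B, stood at -4.72 ± 0.02. CAM1, a form of the elongation factor 1B gamma subunit, was higher at 0.52 ± 0.02 while its relative TEF4 stood at -5.23 ± 0.03. TEF2, which has a near-identical copy in TEF1, had 5693, 5761 and 1449.9 CPM in the euploid tetrad libraries, against 27399 and 36109 CPM in the haploid control libraries, so the third tetrad library was the lowest of the 5. All 18 cytosolic aminoacyl-tRNA synthetase genes, which charge tRNAs, were lower (median -3.48), led by KRS1 at -5.41 ± 0.03 and CDC60 at -4.48 ± 0.04. Mitochondrial ribosomal protein genes did not share this: 45 of 70 were higher, 10 of them 2-fold or more, and 13 lower, with a median of 0.29 and RSM7 highest at 3.01 ± 0.03.

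**Figure D2:**
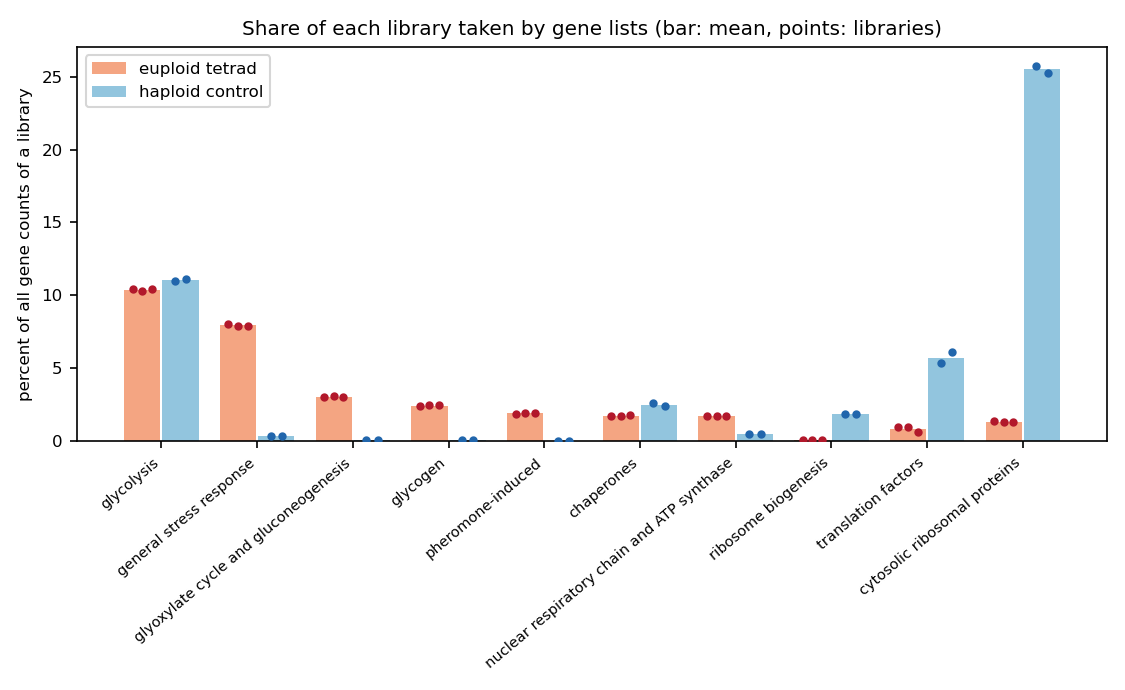
Percent of all gene counts taken by 10 gene lists in each library (points) with the group mean (bars), euploid tetrad population left and haploid control right within each list. Cytosolic ribosomal proteins hold about 1.3% in the euploid tetrad population and over 25% in the haploid control, while glycolysis holds near 10% to 11% in both.

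The general stress response was higher. Of 40 members 38 were higher and 2 lower, with a median of 3.51, and the list took 8.03%, 7.898% and 7.87% of all gene counts in the euploid tetrad libraries, against 0.361% and 0.358% in the haploid control libraries. HSP12, a small membrane-protecting heat shock protein gene (chromosome VI, 107256 to 107585), had 15315, 14255 and 14135 CPM in the euploid tetrad libraries, against 34.8 and 33.98 CPM in the haploid control libraries, a 424-fold difference at 8.73 ± 0.06 (edgeR, adjusted p = 3.02e-32). PHM7, RTN2 and TMA10 stood at 8.35 ± 0.05, 7.12 ± 0.03 and 6.45 ± 0.05, and NQM1, a stress-induced transaldolase gene, at 7.60 ± 0.04. The lower members were PHM8, a nucleotidase gene, at -1.68 ± 0.06, and TOS3, a kinase gene of the Snf1 pathway, at -1.32 ± 0.04. Genes of the hydrophilin and stationary phase list were higher in 18 of 20 cases (median 5.08), with SPG1 at 8.50 ± 0.12, SPG4 at 8.06 ± 0.09 and the eisosome-associated FMP45 at 8.13 ± 0.06. SNZ2 was lower at -0.82 ± 0.33, but it has a near-identical copy in SNZ3 and had 6.06, 6.51 and 6.28 CPM in the euploid tetrad libraries, against 3.87 and 18.3 CPM in the haploid control libraries, and without haploid control replicate 2 it stood at 0.70.

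The stress response element (STRE, AGGGG, on either strand), the binding sequence of Msn2 and Msn4, was found in 23 of 40 general stress promoters (57.5%), against 1265 of 5748 promoters over all genes. It was in 42.5% of genes higher by 4-fold or more and in 11.9% of those lower by 4-fold or more. The promoters of HSP12 and of DDR2, a small stress protein gene at 6.76 ± 0.07, are printed as examples of the element, whose matches stand in capitals as the reverse complement. HSP12 holds it at 2 positions and DDR2 at 3.
HSP12, chrVI:107006-107305, plus strand: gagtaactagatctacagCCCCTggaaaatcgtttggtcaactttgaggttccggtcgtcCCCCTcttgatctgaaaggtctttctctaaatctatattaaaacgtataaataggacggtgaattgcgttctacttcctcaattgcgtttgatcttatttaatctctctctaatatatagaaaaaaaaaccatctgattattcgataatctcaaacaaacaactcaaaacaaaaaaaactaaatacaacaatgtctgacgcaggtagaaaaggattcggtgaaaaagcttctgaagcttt
DDR2, chrXV:231706-232005, minus strand: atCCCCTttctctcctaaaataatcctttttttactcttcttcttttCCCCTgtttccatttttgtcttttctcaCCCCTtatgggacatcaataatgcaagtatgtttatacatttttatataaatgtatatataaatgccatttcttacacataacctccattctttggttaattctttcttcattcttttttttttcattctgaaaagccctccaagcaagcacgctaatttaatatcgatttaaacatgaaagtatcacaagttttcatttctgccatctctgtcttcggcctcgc

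Reserve carbohydrates followed the stress genes. All 7 trehalose genes were higher (median 2.78), both those that make this protective sugar, with TPS1 at 2.31 ± 0.02 and TSL1 at 3.78 ± 0.04, and those that degrade it, with the acid trehalase gene ATH1 at 5.03 ± 0.04 and the neutral trehalase gene NTH1 at 2.42 ± 0.02. Of 14 glycogen genes 13 were higher (median 4.66). The glycogen phosphorylase gene GPH1 had 4471, 4579 and 4526 CPM in the euploid tetrad libraries, against 23.1 and 24.1 CPM in the haploid control libraries, at 7.58 ± 0.04, and the branching enzyme gene GLC3 stood at 5.64 ± 0.03, so genes of synthesis and of breakdown were both higher. PGM1, the minor phosphoglucomutase, was the exception at -2.24 ± 0.04, while PGM2, the major one, was at 5.46 ± 0.03. Among glycerol genes 7 of 11 were higher. STL1, the glycerol-proton symporter of the plasma membrane (chromosome IV, 1508005 to 1509714), had 2029, 2036 and 2005 CPM in the euploid tetrad libraries, against 0.584 and 0.624 CPM in the haploid control libraries, at 11.69 ± 0.05. The glycerol kinase gene GUT1 and the mitochondrial dehydrogenase gene GUT2, which take glycerol into metabolism, stood at 4.00 ± 0.03 and 4.53 ± 0.04. GPP1, a phosphatase that makes glycerol, was lower at -5.64 ± 0.02.

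Carbon metabolism divided by its direction. All 21 glyoxylate cycle and gluconeogenesis genes were 2-fold or more higher (median 6.65), and they took 3.05%, 3.095% and 3.03% of all gene counts in the euploid tetrad libraries, against 0.0952% and 0.0931% in the haploid control libraries. PCK1, whose enzyme starts gluconeogenesis (chromosome XI, 631152 to 632801), had 1601, 1616 and 1563 CPM in the euploid tetrad libraries, against 10.8 and 12.3 CPM in the haploid control libraries, at 7.10 ± 0.04. FBP1, fructose-1,6-bisphosphatase, stood at 7.71 ± 0.06, the acetyl-CoA synthetase gene ACS1 at 6.97 ± 0.06, and the alcohol dehydrogenase gene ADH2, which oxidises ethanol, at 6.97 ± 0.05. JEN1, the lactate transporter gene (chromosome XI, 22234 to 24084), had 4141, 4193 and 4041 CPM in the euploid tetrad libraries, against 7.44 and 8.04 CPM in the haploid control libraries, at 9.05 ± 0.04, and ADY2, an acetate transporter gene, stood at 9.83 ± 0.05. The core of the carbon source response element was found in 0 of the 21 promoters and in 1.1% of all promoters, within the window described above. With so low a share over all promoters, a count of 0 in a list of this size decides nothing. Sequence further upstream was not searched.

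Glucose transporter genes moved in both directions. HXT1, a low-affinity transporter used at high glucose (chromosome VIII, 290913 to 292625), had 1.94, 1.08 and 2.15 CPM in the euploid tetrad libraries, against 451 and 448 CPM in the haploid control libraries, at -8.04 ± 0.08. HXT3, also of low affinity, had 6.84, 8.17 and 7.36 CPM in the euploid tetrad libraries, against 1586 and 1599.7 CPM in the haploid control libraries, at -7.73 ± 0.04. On the other side HXT5, of moderate affinity, had 1341, 1313 and 1328 CPM in the euploid tetrad libraries, against 10.4 and 10.5 CPM in the haploid control libraries, at 6.98 ± 0.03, and HXT6 and HXT7, nearly identical high-affinity genes, were higher at 6.83 ± 0.09 and 4.21 ± 0.05. HXT2 and HXT4, of high affinity, were lower at -1.69 ± 0.03 and -1.62 ± 0.03. The sensor gene SNF3, for low glucose, was higher at 2.82 ± 0.06 and RGT2, for high glucose, was lower at -0.57 ± 0.10. In all, 13 of 18 transporter and sensor genes were higher and 5 lower.

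Glycolysis held a similar share of the libraries in both groups while its members moved in both directions. The list took 10.4%, 10.3% and 10.4% of all gene counts in the euploid tetrad libraries, against 11.01% and 11.1% in the haploid control libraries, with 6 of 17 genes higher and 11 lower. HXK1, hexokinase 1, had 11867, 12280.0 and 12514 CPM in the euploid tetrad libraries, against 148 and 143 CPM in the haploid control libraries, at 6.39 ± 0.03, and the glucokinase gene GLK1 stood at 3.39 ± 0.04, while HXK2, the main hexokinase on glucose, was lower at -1.06 ± 0.02. TDH1, a glyceraldehyde-3-phosphate dehydrogenase gene, was higher at 5.24 ± 0.04, and TDH3, the main gene of that enzyme, was lower at -0.54 ± 0.05. The enolase gene ENO2 had 1546, 1531 and 1529.8 CPM in the euploid tetrad libraries, against 23926 and 25207 CPM in the haploid control libraries, at -4.00 ± 0.04. CDC19, the main pyruvate kinase, stood at -1.35 ± 0.03. Of 8 ethanol fermentation genes 3 were higher and 5 lower, with PDC1, the main pyruvate decarboxylase, at -1.91 ± 0.04 and ADH1 at -0.52 ± 0.06.

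Respiration and fat oxidation were higher. In the TCA cycle 14 of 17 genes were higher (median 2.04), with the succinate dehydrogenase genes SDH1 and SDH2 at 4.44 ± 0.04 and 3.37 ± 0.03. Among the lower ones were IDH1 and IDH2 of isocitrate dehydrogenase at -0.43 ± 0.03 and -0.26 ± 0.02. Of 38 nuclear genes of the respiratory chain and ATP synthase 36 were higher (median 1.45). The CCAAT box of the Hap complex was in 81.6% of their promoters, against 43.8% of all. Over all genes changed by 4-fold or more it stayed near that share, with 44.5% of the higher and 42.3% of the lower ones. NDE2, an external NADH dehydrogenase gene, had 1055, 1058 and 993 CPM in the euploid tetrad libraries, against 7.59 and 7.35 CPM in the haploid control libraries, at 7.11 ± 0.05, and CYC7, cytochrome c isoform 2, stood at 5.52 ± 0.08. CYC1, isoform 1, was lower at -1.52 ± 0.08. Peroxisomal fatty acid oxidation genes were higher in 17 of 19 cases (median 2.88), with the thiolase gene POT1 at 8.11 ± 0.04, the acyl-CoA oxidase gene POX1 at 5.54 ± 0.11 and the peroxisomal catalase gene CTA1 at 5.44 ± 0.07. ANT1 and PEX11, both of the peroxisomal membrane, were lower at -1.43 ± 0.06 and -0.58 ± 0.07. Of 8 mitochondrially encoded genes only OLI1 passed the filter, with 0.233, 0.795 and 0.744 CPM in the euploid tetrad libraries, against 0 and 0 CPM in the haploid control libraries, so these transcripts were barely covered.

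**Figure D3:**
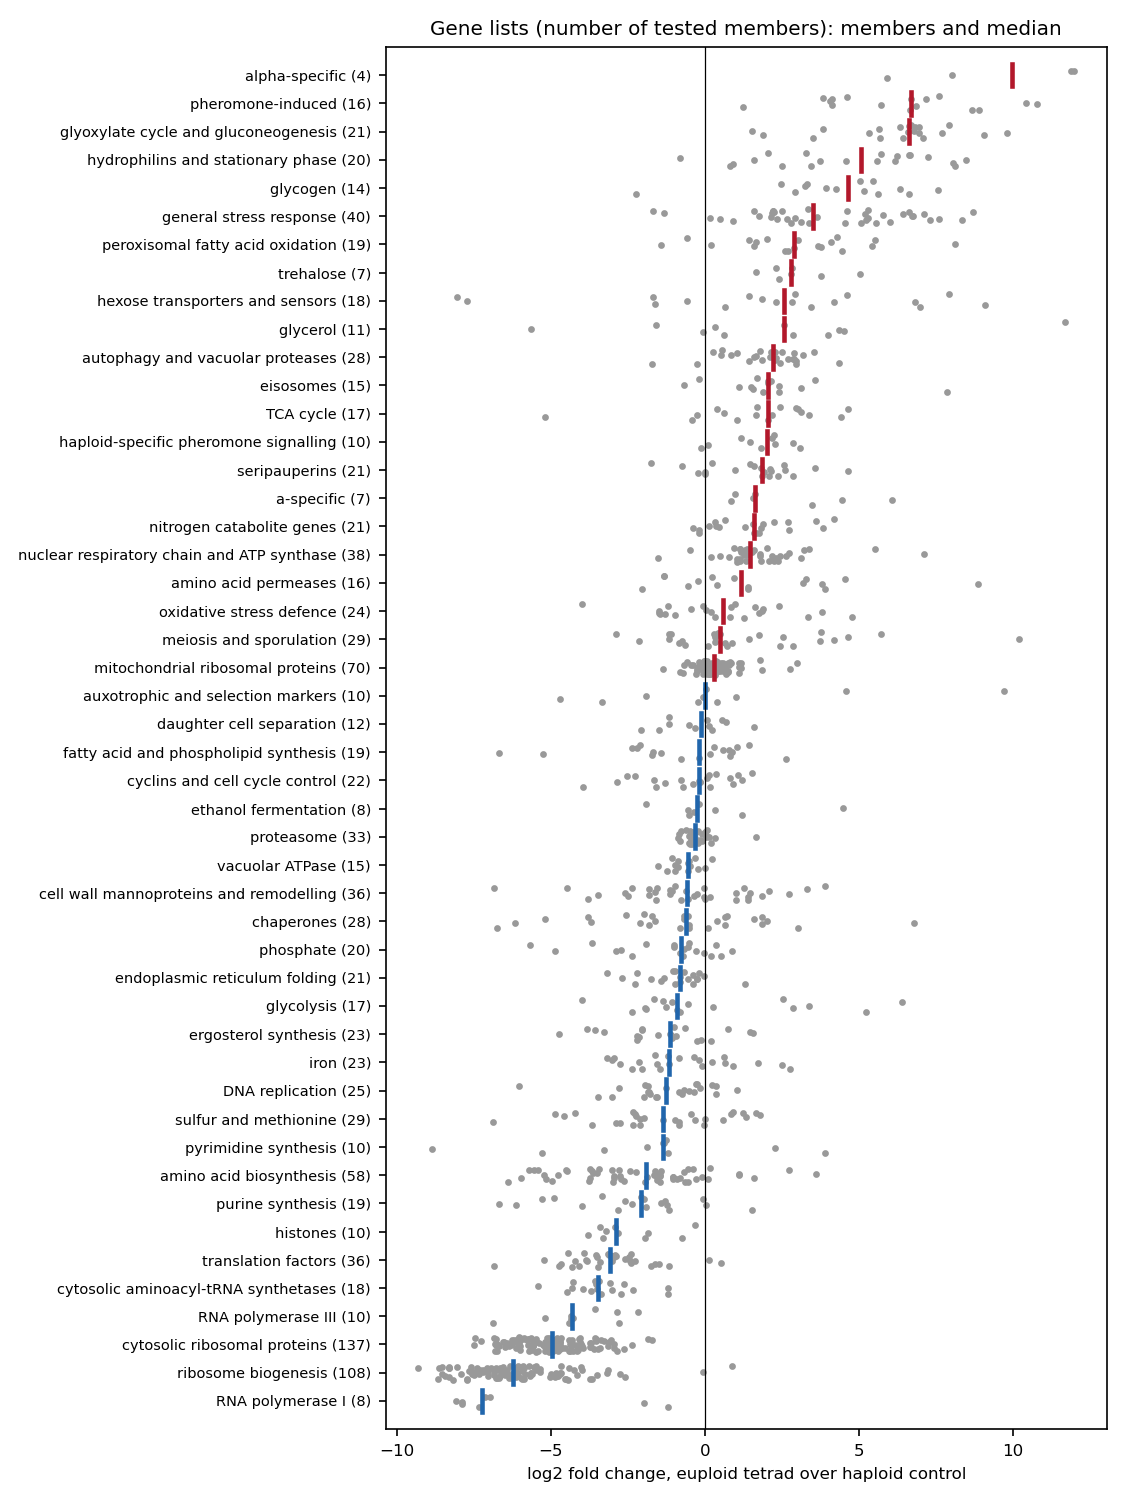
Log2 fold change, euploid tetrad over haploid control, of each tested member (grey points) of the lists with 4 or more tested members, ordered by the list median (bar). The alpha-specific, pheromone-induced and glyoxylate lists stand at the top and RNA polymerase I at the bottom, while the other mating lists have medians of 2.01 and 1.62, with most nutrient synthesis lists below 0.

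Some related genes took opposite directions. In a set of 34 pairs with related products, put together after the values were seen and so given as a description, 27 pairs had 1 gene higher and the other lower, 5 had both higher, and 2 had 1 gene not called. The number of opposite pairs was 25 to 28 under the other scalings, filters and left-out libraries. Duplicated ribosomal protein genes, all of which were lower, are not in the set. Its share of opposite pairs therefore does not extend to related genes in general. As a share of the pair's summed CPM per kb, HXK1 made up 90.3% in the euploid tetrad population and 5.04% in the haploid control, with HXK2 as the partner. ENO1 made up 90.1% in the euploid tetrad population and 8.96% in the haploid control against ENO2, which is near-identical. TDH1 made up 85.7% in the euploid tetrad population and 4.75% in the haploid control against TDH2. TDH2 varied between the euploid tetrad libraries (mean 2691 CPM, standard deviation 804), and TDH3, the main gene of that enzyme, is outside this pair. BAT2, the cytosolic branched-chain aminotransferase, made up 97.9% in the euploid tetrad population and 13.9% in the haploid control against the mitochondrial BAT1. TKL2, a transketolase gene, made up 85.6% in the euploid tetrad population and 0.552% in the haploid control against TKL1. URA7, a CTP synthase gene, had 0.466, 0.578 and 0.744 CPM in the euploid tetrad libraries, against 277 and 282 CPM in the haploid control libraries, at -8.86 ± 0.09, and its partner URA8 had 628, 609 and 625 CPM in the euploid tetrad libraries, against 125 and 131 CPM in the haploid control libraries, at 2.28 ± 0.03. Both glycogen synthase genes, GSY1 and GSY2, were higher, at 3.95 ± 0.03 and 5.18 ± 0.03.

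**Figure D4:**
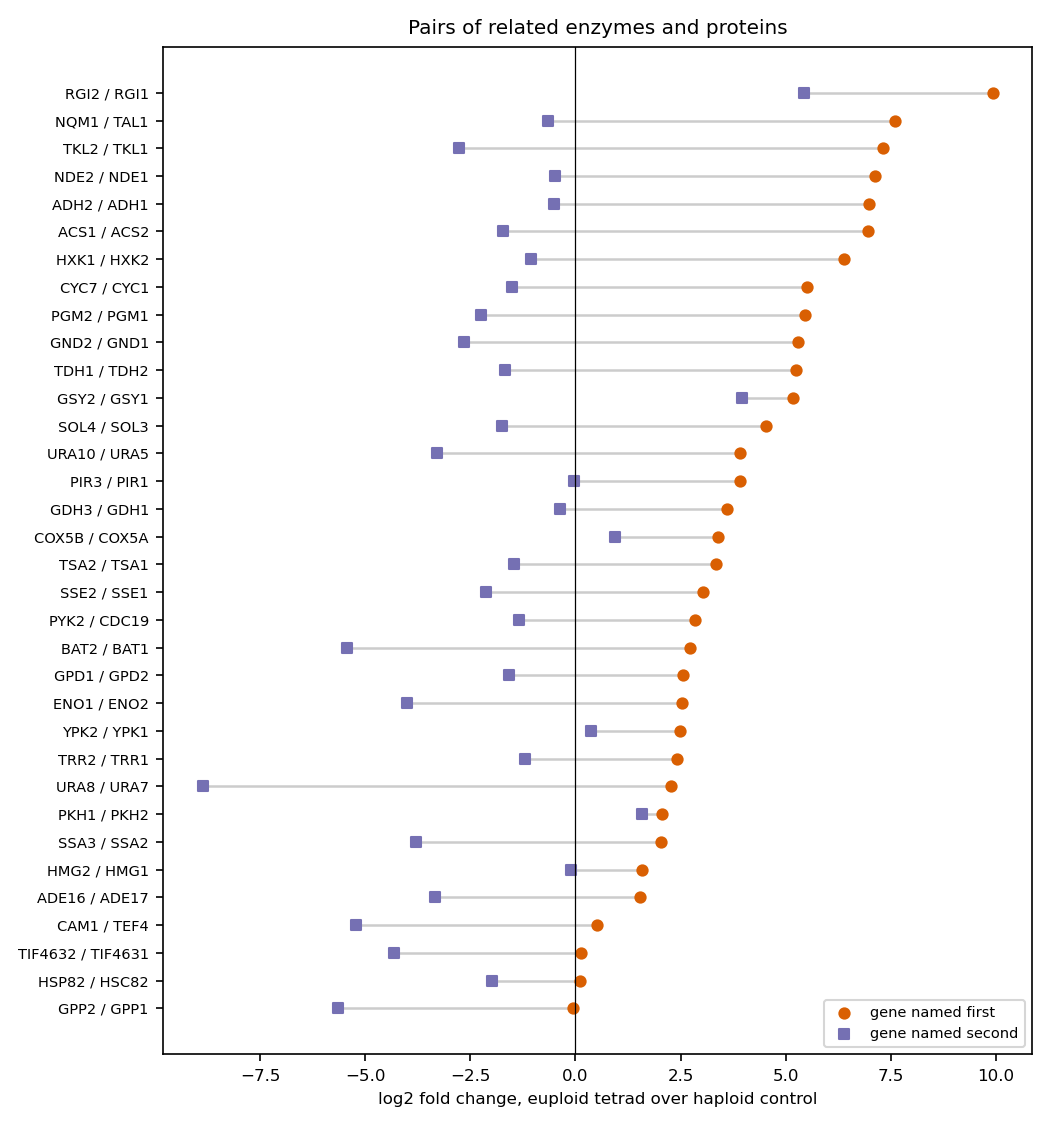
Log2 fold change, euploid tetrad over haploid control, of both genes of 34 pairs of related genes (circle: gene named first, square: gene named second), ordered by the first. In 27 pairs the points lie on either side of 0 and both genes were called.

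Most amino acid, nucleotide and sterol synthesis genes were lower, while the lipid list was divided. Of 58 amino acid synthesis genes 50 were lower and 7 higher (median -1.91). ILV5, of branched-chain synthesis, had 34.4, 36.4 and 35.9 CPM in the euploid tetrad libraries, against 1854 and 1865 CPM in the haploid control libraries, at -5.71 ± 0.03, and HIS1, of histidine synthesis, stood at -6.40 ± 0.09. BAT2 and GDH3, a glutamate dehydrogenase gene, were among the higher ones at 2.73 ± 0.03 and 3.60 ± 0.05. Sulfur and methionine genes were lower in 20 of 29 cases (median -1.35), where SAM1, of S-adenosylmethionine synthesis, stood at -6.87 ± 0.05. In purine synthesis 16 of 19 were lower (median -2.08), with GUA1 of GMP synthesis at -6.13 ± 0.04, and in pyrimidine synthesis 8 of 10 (median -1.36). Ergosterol synthesis genes were lower in 19 of 23 cases (median -1.12), with ERG3 at -4.74 ± 0.05 and ERG11, the azole target, at -3.26 ± 0.03. Of 19 fatty acid and phospholipid synthesis genes 9 were higher and 10 lower, with a median of -0.18 that became 0.014 with library totals alone.

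Nutrient uptake and catabolism varied by nutrient. Of 21 nitrogen catabolite genes 17 were higher and 1 lower (median 1.59), with the repressor gene DAL80 at 4.21 ± 0.22, the glutamate dehydrogenase gene GDH2 at 3.83 ± 0.04 and the proline oxidase gene PUT1 at 3.63 ± 0.03. PUT4, the proline permease, had 2253, 2320.0 and 2209 CPM in the euploid tetrad libraries, against 5.18 and 4.51 CPM in the haploid control libraries, at 8.87 ± 0.06, and GAP1, the general amino acid permease, stood at 3.92 ± 0.04. BAP3 and TAT1, permeases for branched-chain and aromatic amino acids, were lower at -2.06 ± 0.04 and -1.32 ± 0.04, though TAT1 shares 1824 bp with an overlapping gene. Of 20 phosphate genes 15 were lower (median -0.77). PHO84, the high-affinity phosphate transporter gene, stood at -5.67 ± 0.04 and shares 1764 bp with an overlapping gene. Iron genes were lower in 15 of 23 cases (median -1.17), with the oxidase FET3 and permease FTR1 of high-affinity uptake at -3.19 ± 0.03 and -2.96 ± 0.04, and the mitochondrial iron carrier MRS4 higher at 2.76 ± 0.03.

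Protein turnover lists differed from each other. Autophagy and vacuolar protease genes were higher in 26 of 28 cases (median 2.21), with ATG39, a receptor for nuclear autophagy, at 4.35 ± 0.06 and the aminopeptidase gene APE1 at 3.56 ± 0.03. ATG5 was lower at -1.73 ± 0.04. Proteasome genes lay close together: 25 of 33 were lower and 5 higher, none of the lower ones by 2-fold, with a median of -0.31, and the regulator gene RPN4 was the only one 2-fold higher at 1.67 ± 0.03. Chaperone genes split, with 10 of 28 higher and 17 lower. SSB1, a ribosome-associated Hsp70, had 31.7, 37.4 and 37.2 CPM in the euploid tetrad libraries, against 3794 and 3904 CPM in the haploid control libraries, at -6.76 ± 0.04, and the Hsp40 gene YDJ1 stood at -5.21 ± 0.03. HSP26, a small heat shock protein gene, had 3987, 3859 and 4054 CPM in the euploid tetrad libraries, against 35.5 and 35.4 CPM in the haploid control libraries, at 6.80 ± 0.04. In oxidative stress defence 14 of 24 were higher and 8 lower, from the glutathione peroxidase genes GPX1 at 4.78 ± 0.05 to GPX2 at -4.00 ± 0.07. Genes of folding in the endoplasmic reticulum were lower in 19 of 21 cases (median -0.82), with the Hsp70 gene KAR2 at -2.20 ± 0.03, and vacuolar ATPase genes in 13 of 15 (median -0.54).

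Genes of division were lower in part. All 10 histone genes were lower (median -2.88), with HTB2 at -3.80 ± 0.05 and HHO1, the linker histone, least changed at -0.33 ± 0.03. DNA replication genes were lower in 21 of 25 cases (median -1.28), with RNR1, the large subunit of ribonucleotide reductase, at -6.03 ± 0.06 and the clamp gene POL30 at -3.46 ± 0.06. The G1 cyclin genes CLN1 and CLN2 stood at -2.28 ± 0.04 and -2.54 ± 0.04, and CLB6, an S phase cyclin gene, had 0.777, 0.289 and 0.413 CPM in the euploid tetrad libraries, against 7.95 and 7.56 CPM in the haploid control libraries. SIC1, an inhibitor of S phase cyclins, was higher at 1.52 ± 0.03. Over all 22 cyclin and cell cycle genes 7 were higher and 13 lower, with a median of -0.18 that became 0.01 with library totals alone. Daughter separation genes were even, 6 higher and 6 lower, with DSE3 at 1.59 ± 0.03 and SUN4 at -2.09 ± 0.04.

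At the cell surface, 13 of 15 eisosome genes, which mark furrows of the plasma membrane, were higher (median 2.04), with YNL194C at 7.88 ± 0.03 and PUN1 at 3.11 ± 0.02. Cell wall genes were mixed, with 12 of 36 higher and 21 lower. The transglycosylase gene UTR2 stood at -6.86 ± 0.07, the glucanosyltransferase gene GAS1 at -4.48 ± 0.03 and the glucan synthase gene FKS1 at -3.78 ± 0.04, while the mannoprotein genes PIR3 and CWP1 were higher at 3.90 ± 0.05 and 3.31 ± 0.03.

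Genes of both mating types and of the pheromone response were higher in the euploid tetrad population. All 4 alpha-specific genes were higher (median 9.97). MF(ALPHA)1, which encodes alpha-factor (chromosome XVI, 193648 to 194145), had 2226, 2212 and 2212 CPM in the euploid tetrad libraries, against 0.729 and 0.416 CPM in the haploid control libraries, at 11.91 ± 0.11 (edgeR, adjusted p = 2.35e-29), and MF(ALPHA)2 stood at 12.00 ± 0.13. The a-factor receptor gene STE3 had 994, 997 and 985 CPM in the euploid tetrad libraries, against 4.67 and 2.91 CPM in the haploid control libraries, at 8.04 ± 0.07, and the alpha agglutinin gene SAG1 stood at 5.92 ± 0.04. All 7 a-specific genes were higher as well, with a lower median of 1.62. STE2, the alpha-factor receptor, had 1409.8, 1387 and 1382 CPM in the euploid tetrad libraries, against 472 and 479 CPM in the haploid control libraries, at 1.55 ± 0.02, and ASG7 stood at 6.09 ± 0.06. The a-factor genes MFA1 and MFA2 stood at 0.97 ± 0.06 and 1.62 ± 0.05. Transcripts of both cell types were thus present in each of the 3 tetrad libraries, and their shares of the cells were not measured.

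Of 10 haploid-specific signalling genes, which haploids of either mating type express, 8 were higher and none lower (median 2.01), with the kinase gene FUS3 at 3.09 ± 0.06, FAR1 of cell cycle arrest at 2.86 ± 0.04 and the transcription factor gene STE12 at 2.27 ± 0.04. STE5, the scaffold, and NEJ1, of DNA end joining, were not called, at 0.09 ± 0.05 and -0.11 ± 0.07. Both depend on the scaling: STE5 was called higher with library totals alone and NEJ1 was called lower with RLE and upper-quartile factors, and each changed sign under a further scaling. All 16 pheromone-induced genes were higher (median 6.68), and they took 1.88%, 1.93% and 1.92% of all gene counts in the euploid tetrad libraries, against 0.03700% and 0.0368% in the haploid control libraries. FIG1, needed for mating projections and fusion (chromosome II, 316968 to 317864), had 1322, 1309.9 and 1371 CPM in the euploid tetrad libraries, against 1.02 and 0.902 CPM in the haploid control libraries, at 10.43 ± 0.09 (edgeR, adjusted p = 2.17e-30). FUS1, of cell fusion, had 1587, 1595 and 1558 CPM in the euploid tetrad libraries, against 10.7 and 10.9 CPM in the haploid control libraries, at 7.19 ± 0.06, and PRM1, a membrane fusion gene, had 2139, 2145 and 2021 CPM in the euploid tetrad libraries, against 4.38 and 4.44 CPM in the haploid control libraries, at 8.89 ± 0.07. AGA1, the anchor of a-agglutinin, stood at 6.66 ± 0.06, and KAR4, a factor for nuclear fusion genes, at 5.72 ± 0.04.

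The pheromone response element (PRE, TGAAACA, on either strand), the binding sequence of Ste12, was found in 11 of 16 pheromone-induced promoters (68.8%), against 7.2% of all promoters. It was in 3 of 10 haploid-specific, 5 of 7 a-specific and 1 of 4 alpha-specific promoters. Among genes changed by 4-fold or more, 8.6% of the higher and 5.5% of the lower ones held it. PRM1 holds it at 3 positions and FUS1 at 2. Their promoters are printed with the element in capitals.
PRM1, chrXIV:110667-110966, plus strand: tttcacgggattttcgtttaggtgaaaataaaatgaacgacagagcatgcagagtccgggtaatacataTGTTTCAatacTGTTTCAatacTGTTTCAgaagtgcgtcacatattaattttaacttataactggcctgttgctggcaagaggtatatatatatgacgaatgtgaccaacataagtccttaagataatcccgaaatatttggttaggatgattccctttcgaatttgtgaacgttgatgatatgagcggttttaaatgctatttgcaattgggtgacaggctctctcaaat
FUS1, chrIII:71553-71852, plus strand: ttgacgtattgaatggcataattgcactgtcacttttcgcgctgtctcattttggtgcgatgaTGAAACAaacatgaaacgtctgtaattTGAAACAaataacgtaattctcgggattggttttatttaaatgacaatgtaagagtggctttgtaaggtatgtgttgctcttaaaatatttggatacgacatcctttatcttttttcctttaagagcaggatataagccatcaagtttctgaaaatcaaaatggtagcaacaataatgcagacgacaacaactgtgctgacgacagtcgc

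Genes of meiosis and sporulation, which mark diploids leaving the mitotic cycle, were low in both groups. Their summed share was 0.0502%, 0.0514% and 0.05100% of all gene counts in the euploid tetrad libraries, against 0.0122% and 0.0114% in the haploid control libraries, with 17 of 29 tested members higher and 6 lower (median 0.50). IME1, the master regulator, had 20.1, 17.3 and 18.8 CPM in the euploid tetrad libraries, against 15.2 and 14.5 CPM in the haploid control libraries, at 0.34 ± 0.08, and the middle meiosis regulator NDT80 was not called, with 5.83, 6.43 and 6.78 CPM in the euploid tetrad libraries, against 4.96 and 5.201 CPM in the haploid control libraries, though it was called higher with library totals alone. Among single members the recombination genes MEK1, REC8 and DMC1 were higher at 5.73 ± 0.36, 3.77 ± 0.14 and 3.75 ± 0.10, and the spore genes SPS1 and SPO19 were lower at -2.15 ± 0.18 and -2.88 ± 0.63. IME4, of RNA methylation, stood at 10.20 ± 0.19, but an antisense gene overlaps all 1803 bp of it and reads cannot be assigned without a known strand setting. The part of cells entering meiosis in the other differences was not tested.

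Some genes were not called, although the libraries of the groups did not overlap in the first of them. HO, the mating-type switching endonuclease gene, had 65.4, 66.4 and 66.1 CPM in the euploid tetrad libraries, against 65.1 and 62.8 CPM in the haploid control libraries, at 0.04 ± 0.05. HOG1, the osmotic stress kinase gene, had 436, 430.2 and 427 CPM in the euploid tetrad libraries, against 437 and 448 CPM in the haploid control libraries, at -0.04 ± 0.02, and the cell wall gene PIR1 and the tropomyosin gene TPM1 stood at -0.04 ± 0.03 and -0.06 ± 0.03. These calls rest on the scaling: HOG1, PIR1 and TPM1 were called lower with upper-quartile factors and stood above 0 with library totals alone, where HO was called higher. In all 571 tested genes were not called. A gene that was not called is not thereby shown to be equal.

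The euploid a-selection population shares the haploid control, so the 2 euploid populations were set against each other directly. In this test 2146 genes were higher in the euploid tetrad population (35.1%) and 2168 lower (35.5%), or 70.6% together, of which 340 (5.56%) and 332 (5.43%) differed 2-fold or more, and with library totals alone the counts were 1059 and 3653. Among lists with 4 or more tested members the mating lists had the largest medians. All 4 alpha-specific, all 7 a-specific and all 16 pheromone-induced genes were higher in the euploid tetrad population, by medians of 9.80, 2.10 and 4.71. FIG1 had 1322, 1309.9 and 1371 CPM in the euploid tetrad libraries, against 16.2, 15.9 and 16.3 CPM in the euploid a-selection libraries, a difference of 6.37 ± 0.05 (edgeR, adjusted p = 1.54e-29). PRM4, a pheromone-regulated gene, differed by 4.21 ± 0.03, and HO by 4.38 ± 0.08, since HO stood at 3.08, 3.53 and 2.84 CPM in the euploid a-selection libraries.

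Ribosome and carbon lists also differed in size between the euploid populations. Ribosomal protein genes were lower in the euploid tetrad population in 132 of 137 cases (median -1.05) and ribosome biogenesis genes in 85 of 108 (median -1.05), where the medians against the haploid control were -4.97 and -6.24 for euploid tetrad and -3.90 and -5.08 for euploid a-selection. Glyoxylate cycle and gluconeogenesis genes were higher in 20 of 21 cases (median 1.45), led by MLS1, the malate synthase gene, at 4.09 ± 0.04, with PCK1 at 2.44 ± 0.02. Glycolysis genes were higher in 16 of 17 (median 1.47), and histone genes lower in 10 of 10 (median -1.40). HXT1 stood at -4.41 ± 0.10 and the arginine synthesis gene CPA1 at -3.29 ± 0.04. With TMM scaling, general stress genes had no common direction here, 14 higher and 20 lower of 40, with a median of -0.09. HSP12 stood at 0.22 ± 0.03. Library totals alone gave 1059 higher and 3653 lower over all genes, so differences as small as these rest on the scaling. The direction of the list under that scaling was not tested.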

How the data were processed

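RNA sequencing of 23 yeast libraries gave a deposited table of raw counts per gene. The submitters' processing notes name HISAT2 2.0.5, HTSeq 0.6.1p1, DESeq2 1.14.1, bcl2fastq 2.17.1.14 and FastQC 0.11.5, and build R64. Strand setting and treatment of shared reads are not given in these sources. A deposited table of the authors' own comparison served only to compare gene starts, and 5807 of 5809 equalled those of RefSeq R64. Counts of all libraries (12719710 to 19327344 each) were filtered with filterByExpr over 8 groups, scaled with TMM and fitted in edgeR 4.0.16 under R 4.3.3 with limma 3.58.1. The model had a coefficient for each group, which left 15 residual degrees of freedom. The common biological coefficient of variation was 5.05%. P-values were adjusted by Benjamini-Hochberg over 6111 genes and called at 0.05, and standard errors follow from the F statistic. Replicate libraries differed by more than sampling noise in a chi-square test, so each was counted. A count of 0 still allows 3 counts, which covers counting error only. The steps were tested on simulated counts.

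RefSeq R64 supplied gene names for 5749 tested genes, gene spans and promoters. The genes and 49 lists were chosen with earlier results of these data known, so lists are given as counts and medians with no set test. The lists held 1027 symbols, and 3 had no match. Named genes were the 15 highest and 15 lowest called genes whose average log2 CPM reached 3 and whose groups did not overlap, up to 5 members per list by size and up to 3 against the list's sign. They included each member of short, mating, marker and transporter lists, the 10 most counted genes per group, the 10 most counted uncalled genes within 0.1 of 0, and the 8 largest differences from euploid a-selection per direction. DDR2, ESF1, MLS1 and the pairs of related genes were added after their values were seen, and 1 gene and its pair are not reported here. Alternatives were other scalings and filters, DESeq2 1.42.0, a replicate block, a fit of only the groups compared, a threshold of 0.01, and each library left out in turn.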

Additional observations from a re-analysis of the deposited data

Results flagged for a closer look

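Genes were counted here if the comparisons of euploid tetrad and of euploid a-selection with the haploid control were called in opposite directions. The direct difference between the euploid populations also had to be called. These conditions held for 22 of 456 tested named genes (4.82%), against 180 of all 6111 tested genes (2.95%). Among the 22 the highest adjusted p of that difference was 1.9e-07 (edgeR), but its call was part of the selection. Both comparisons with the haploid control use the same haploid control libraries. Some named genes were chosen by the size or direction of these same differences, so their share cannot be read against that of all genes. Values below are log2 differences, euploid tetrad minus euploid a-selection.

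Members of the mating lists made up 9 of the 22, out of 37 such members, and other named genes 13 out of 419. Every mating list member was named by rule, but the lists were chosen with earlier results of these data known. The shares are therefore description only. PRM4 and PRM5, both pheromone-regulated, differed by 4.21 and 2.44. FAR1, of pheromone arrest, differed by 3.65, the kinase gene FUS3 by 3.28 and the transcription factor gene STE12 by 3.26. SST2, which desensitises the pathway, differed by 2.81 and STE4, the G protein beta subunit, by 1.75. The a-factor genes MFA1 and MFA2 differed by 1.195 and 2.31. Each of these was above the haploid control in euploid tetrad and below it in euploid a-selection. The values ran from 0.97 (MFA1) to 4.06 (PRM4) in euploid tetrad and from -1.20 (PRM5) to -0.15 (PRM4) in euploid a-selection.

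Among metabolic genes, CPA1 of arginine synthesis differed by -3.29, standing at -1.55 in euploid tetrad and 1.74 in euploid a-selection, both relative to the haploid libraries. HXT2, a glucose transporter gene, differed by -2.68 in the same manner. ARG4, also of arginine synthesis, differed by 1.78, the phosphoglycerate mutase gene GPM1 by 1.74, the ergosterol gene ERG24 by 1.44 and the alcohol dehydrogenase gene ADH4 by 0.93. The ribonucleotide reductase genes RNR2 and RNR4 differed by 0.59 and 0.53, the chaperone gene HSP82 by 0.56 and the daughter separation gene DSE1 by 0.65. The linker histone gene HHO1 differed by -0.93, the eisosome gene SUR7 by -0.87 and SLM2, of the same list, by -0.44. HSP82 stood close to the haploid control at 0.11 and lost its sign with upper-quartile factors (-0.0049), and SLM2 stood at -0.19.

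The opposite directions rest on the scaling in part, as a check added after the data were seen showed. With library totals alone 14 of the 22 kept opposite signs. In ARG4, DSE1, FUS3, MFA1, PRM4, RNR2 and RNR4 the value of euploid a-selection against the haploid control then turned positive, as for PRM4 at 0.27, and in SLM2 that of euploid tetrad did. With upper-quartile factors 21 kept opposite signs, all but HSP82.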

How the results depend on the processing

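The 6 counts over all genes stayed within 1.5 times their main values under all alternatives run except library totals alone, which gave 1059 genes higher and 3653 lower in euploid tetrad against euploid a-selection. Against the haploid control that scaling gave 3179 higher and 2412 lower, upper-quartile factors gave 2690 and 2825, and DESeq2 gave 2759 and 2708. Leaving out 1 library at a time gave 2792 to 2856 higher and 2607 to 2642 lower against the haploid control, 1699 to 1715 and 1645 to 1659 at 2-fold or more, and 2057 to 2103 higher and 2062 to 2095 lower against euploid a-selection. With a replicate block the counts were 2874 higher and 2658 lower, 1722 and 1658 at 2-fold or more, and 2136 and 2160 against euploid a-selection. The deviations of same-numbered euploid tetrad and haploid control libraries correlated at 0.021 and 0.096. With only 2 haploid control libraries, whose deviations mirror each other, this cannot decide whether same-numbered libraries were handled together.

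List medians changed sign with library totals alone for fatty acid and phospholipid synthesis (0.014), cyclins and cell cycle control (0.0099), daughter separation (0.067) and markers (0.184), and for markers also when a library was left out (-0.013 to 0.0058). Single genes near 0 changed sign too. With library totals alone HOG1 stood at 0.15, PIR1 at 0.15, TPM1 at 0.13, NEJ1 at 0.078, ESF1 at 0.12 and SLM2 at 0.0050. With upper-quartile factors HO stood at -0.066, STE5 at -0.020 and HSP82 at -0.0049. HO stood at -0.00080 in a fit of only the groups compared and at -0.00049 with DESeq2. SNZ2 ranged from -1.54 without haploid control replicate 1 to 0.70 without haploid control replicate 2. Single libraries also decided the calls of MATALPHA1 and URA3. MATALPHA1 was held by euploid tetrad replicate 2 alone, and URA3 lost its call without euploid tetrad replicate 3 (edgeR, adjusted p = 0.064). Both calls were also lost without either haploid control library, where the log2 fold changes were still 12.0 for MATALPHA1 and 4.6 for URA3. Changes under 0.2 on the log2 scale in euploid tetrad against haploid control therefore rest on the scaling. This limit does not hold for comparisons with euploid a-selection. There library totals alone moved values further, as for ARG4 in euploid a-selection against haploid control, from -0.18 to 0.25. The cause of the sign changes was not tested. Genes with a few counts per library, such as CLB6 and OLI1, are limited by depth.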

Other observations

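The 211 tested genes within 20 kb of an end had a median log2 fold change of 1.095, with 119 higher (56.4%) and 38 lower (18.01%), where the 4338 genes more than 100 kb away had a median of 0.02, with 46.8% higher and 45.97% lower. Their levels were low, with a median of 16.9 CPM in the euploid tetrad population and 6.73 CPM in the haploid control. Many belong to families of near-identical copies, so single genes were not named. Of 21 tested seripauperin genes, a family that lies mostly near chromosome ends, 11 were higher and 1 lower (median 1.87).

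By chromosome, medians ran from -0.10 on chromosome VIII (274 genes) to 0.40 on chromosome VI (119 genes, 61.3% positive), where the medians of euploid a-selection against the same haploid control were -0.09 and 0.31. The locus YCL076W, which has no gene name, had 47.6, 52.1 and 55.6 CPM in the euploid tetrad libraries and 0 counts in both haploid control libraries, at least 243-fold higher against a floor of 3 counts per library.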
